A study of Mus musculus with 6 samples.

Results

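Colony-stimulating factors (CSFs) are secreted proteins that make myeloid cells survive, divide, mature and act. Csf1 (M-CSF) acts on monocytes and macrophages through the receptor tyrosine kinase Csf1r, which also binds the cytokine IL-34. Csf2 (GM-CSF) acts on granulocytes, macrophages and dendritic cells through a specific alpha chain, Csf2ra, paired with the signalling beta chain Csf2rb that the IL-3 and IL-5 receptors share. Csf3 (G-CSF) drives the production of neutrophils and their release from marrow through Csf3r, and the receptors of Csf2 and Csf3 signal through JAK kinases and STAT3 or STAT5. These 7 genes were taken by symbol from a table of 17761 mouse genes, and each symbol matched 1 row.

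The samples were 3 Model and 3 Control RNA libraries. The Model is a surgical ligation of the inferior vena cava, the large vein of the lower body, after which vein and thrombus were collected jointly at 24 h. All 6 samples carry the tissue label "thrombus", and the labels give no strain, age or sex and leave the handling of the Control animals unstated. Whether the libraries within a group stem from different animals is not given either, so the p-values reflect the spread among these libraries alone, possibly a technical one.

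Model libraries held 25336173 to 28193281 counts and Control libraries 31924426 to 38118463. Levels are given as CPM, counts scaled to a common library size with TMM factors, and 1 count was worth 0.0364 to 0.0404 CPM in Model and 0.0243 to 0.0294 CPM in Control. In edgeR's quasi-likelihood test over 13907 genes, with p-values adjusted by Benjamini-Hochberg, 2.71% were called higher and 1.36% lower in Model at an adjusted p under 0.05. The groups did not overlap at 12.1% of these genes with Model the higher and at 11.4% with Model the lower. As for markers of the labelled tissue, the summed level of 7 platelet markers was 397 to 952 CPM in Model and 51.1 to 147 CPM in Control, and that of 8 endothelial markers 1820 to 2695 CPM in Model and 1787 to 2083 CPM in Control. Model 2 and Control 1 held the most liver transcripts, with 7 liver markers summing to 5036 CPM in Model 2 and 601 CPM in Control 1 and to at most 170 CPM in the other libraries, so results are also given without this pair.

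The transcripts of the family differ in a feature of the mRNA that is known to shorten the life of cytokine transcripts. AU-rich elements, repeats of the pentamer ATTTA in the 3′ untranslated region, are bound by decay factors such as tristetraprolin, the product of Zfp36. The 30 bases of the 3′ untranslated region with the most overlapping pentamers are shown for the 2 ligands on chromosome 11, with the pentamers in capitals.
Csf2: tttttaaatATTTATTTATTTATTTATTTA
Csf3: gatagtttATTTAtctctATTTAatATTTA
The Csf2 stretch covers bases 230 to 259 of a 3′ untranslated region of 317 bases that holds 9 pentamers, and 0.0637% of 20393 annotated mouse genes have as many per base or more. The Csf3 stretch covers bases 24 to 53 of 669 bases that hold 6 pentamers, a density that 1.8% of genes reach. The 3′ untranslated region of Csf1, 2111 bases long, holds 4 (37% of genes are as dense) and that of Csf1r 3. Csf3r, Csf2ra and Csf2rb hold none, as do 37.5% of all genes. A match of these letters is a description of the sequence, not of its use.

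Of the ligands, Csf3 was scarcely counted in Control and present in every Model library. Csf3 (ENSMUSG00000038067, chr11:98701263-98703629 of GRCm38, plus strand) stood at 4.24, 12.9 and 33.4 CPM in Model 1 to 3, 1307 counts in all. It stood at 0.0283, 0.195 and 0.0294 CPM in Control 1 to 3, which is 1, 8 and 1 counts. The groups did not overlap, and the Model libraries themselves spanned a wide range, with Model 3 the highest. The log2 fold change of Model over Control was 7.55 (SE 1.52, edgeR adjusted p = 0.0148), and the ratio of pooled rates was 186 (95% exact interval 101 to 389, counting error only). Without Model 3 it was 6.59 with an adjusted p of 0.127, with limma-voom 7.40 with an adjusted p of 0.133, and without Control 1 and Model 2 together 7.32 with an adjusted p of 0.0853.

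Csf1 was abundant in both groups. Csf1 (ENSMUSG00000014599, chr3:107741048-107760469, minus strand) stood at 73.0, 116 and 213 CPM in Model 1 to 3 and at 73.0, 72.1 and 116 CPM in Control 1 to 3. The lowest Model library lay at the level of the lowest Control libraries and only Model 3 exceeded every Control library. The log2 fold change was 0.62 (SE 0.38, edgeR adjusted p = 0.469). Il34, the other ligand of Csf1r, was at 9.07 ± 6.29 CPM in Model and 3.55 ± 3.92 CPM in Control (SD, n = 3 each), with 2 counts in Control 1, and did not pass the test (log2 fold change 1.35, SE 1.43, edgeR adjusted p = 0.736). The Il34 value was 0.63 without Model 1 and 2.66 without Control 2.

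Csf2 was counted in Control 3 almost alone. Csf2 (ENSMUSG00000018916, chr11:54247271-54249667, minus strand) had 0 counts in each of the 3 Model libraries, which allows up to 3 counts or 0.109 to 0.121 CPM. It had 1, 0 and 42 counts in Control 1 to 3. It did not pass the filter on low counts (a minimum count of 10), and in the fit without a filter its edgeR adjusted p was 0.317. No fold is given, since the difference rests on 1 library. Of its 800 annotated exon bases, 96 are shared with a predicted gene on the other strand.

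Csf3r, the receptor of Csf3, was likewise scarcely counted in Control. Csf3r (ENSMUSG00000028859, chr4:126024550-126044440, plus strand) had 34, 967 and 146 counts in Model 1 to 3 (1.37, 35.2 and 5.75 CPM). It had 2, 3 and 2 counts in Control 1 to 3 (0.0566, 0.0730 and 0.0589 CPM), at or under the 3 counts that a 0 allows. The groups did not overlap, but Model 2 held 82.8% of the summed CPM of all 6 libraries. The log2 fold change was 7.72 (SE 1.68, edgeR adjusted p = 0.0227), and the ratio of pooled rates 233 (95% exact interval 113 to 581, counting error only). The call was lost without Control 1, Control 2 or Control 3 (adjusted p = 0.0716, 0.0740 and 0.0753), without Model 2 (log2 fold change 5.73, adjusted p = 0.311), with limma-voom (6.50, adjusted p = 0.235) and without Control 1 and Model 2 together (5.67, adjusted p = 0.296).

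**Figure D1:**
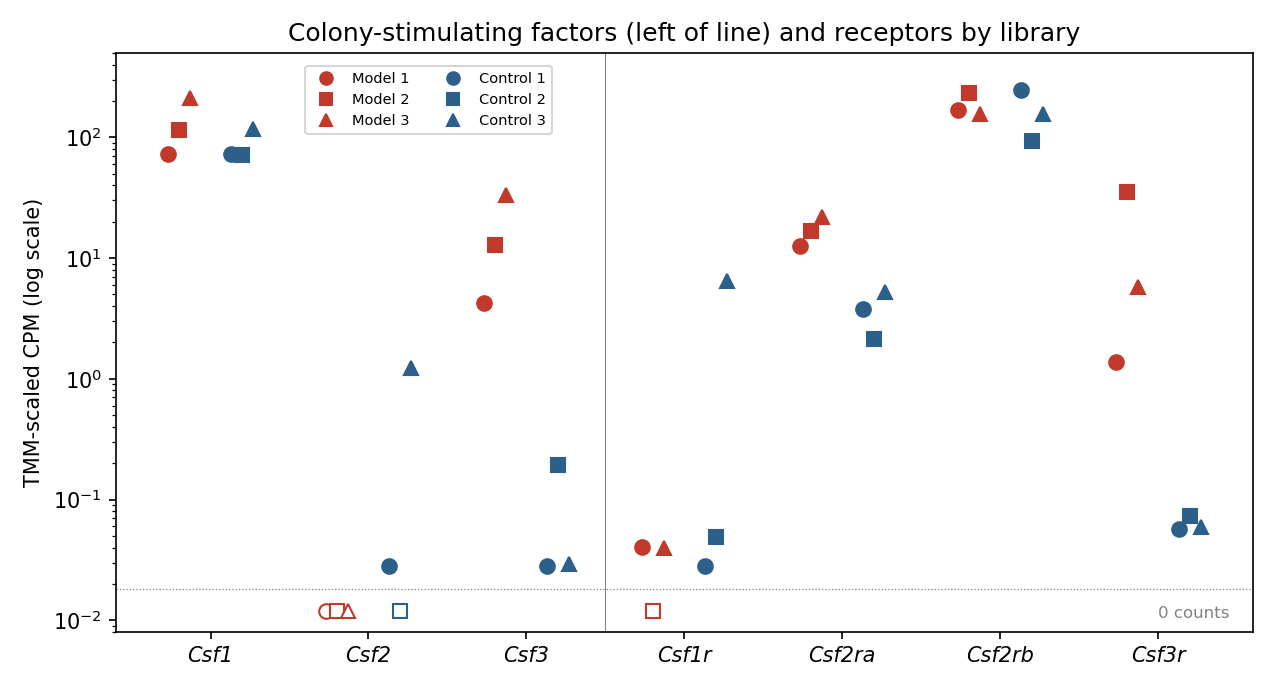
TMM-scaled CPM on a log scale of the 3 ligands (left of the line) and the 4 receptors, 1 point per library, with Model in red left of Control in blue, the symbol giving the replicate number, and open symbols below the dotted line standing for 0 counts. Csf3, Csf3r and Csf2ra do not overlap between the groups, and Csf2 and Csf1r stand clear of the bottom in Control 3 alone.

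Csf3r is a marker of neutrophils, and other neutrophil transcripts moved with it. The 12 neutrophil markers summed to 3572, 7253 and 3877 CPM in Model 1 to 3 and to 45.3, 74.4 and 149 CPM in Control 1 to 3. S100a8, S100a9 and Lcn2 made up most of each Model sum. Lcn2 stood at 1344, 707 and 1582 CPM in Model 1 to 3, lowest in Model 2, where Csf3r was highest. Of the 10 neutrophil markers that were tested, 9 rose and none fell, with a median log2 fold change of 5.98 beside -0.01 over all tested genes. The defining marker Ly6g had 1, 337 and 147 counts in Model 1 to 3 and 0 in every Control library, and Camp, an antimicrobial peptide of neutrophil granules, had 1, 0 and 0 counts in Model 1 to 3 and 0, 48 and 0 in Control 1 to 3. In this bulk tissue, more cells of a type and more RNA per cell cannot be told apart.

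Expressed per neutrophil marker count within a library, Csf3r stood at 0.000385, 0.00485 and 0.00148 in Model 1 to 3 and at 0.00125, 0.000982 and 0.000396 in Control 1 to 3. The values overlapped, with Model 2 the highest and Model 1 the lowest. The mean log2 ratio was -9.48 ± 1.83 in Model and -10.31 ± 0.87 in Control (SD, n = 3 each), a difference of 0.84 (exact permutation test, two-sided p = 0.5, where 3 against 3 samples cannot go below 0.1). Without Model 2 the difference was -0.06, and with 1 count added to both sums in all libraries it was 0.33. The Control ratios rest on 2, 3 and 2 Csf3r counts, at or under the 3 counts that a 0 allows. Csf3r and its ligand were not highest in the same library, since Csf3r was highest in Model 2 and Csf3 in Model 3.

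Csf2ra, the alpha chain that gives the GM-CSF receptor its specificity, was higher in each Model library than in each Control library. Csf2ra (ENSMUSG00000059326, chr19:61223957-61228429, minus strand) stood at 12.7, 16.7 and 21.9 CPM in Model 1 to 3 and at 3.82, 2.12 and 5.24 CPM in Control 1 to 3. It did not pass the test (log2 fold change 2.20, SE 0.90, edgeR adjusted p = 0.249). DESeq2, which called 4.59% of genes higher, gave 2.19 with an adjusted p of 0.0481. The marker sums of neutrophils and platelets were also higher in Model without overlap, as was that of 8 eosinophil and mast cell markers, with 134 to 263 CPM in Model and 72.0 to 126 CPM in Control, among which Ms4a2, Prg2 and Ccr3 were at 0 in some libraries. Kit made up most of the last sum in Model, at 256, 90.1 and 136 CPM in Model 1 to 3. In Control 1 to 3 Kit stood at 49.5, 46.9 and 35.2 CPM. Of the 5 tested eosinophil and mast cell markers, Kit was the 1 called higher, and their median log2 fold change was -0.89. The marker sums of T and NK cells, B cells, smooth muscle (1133 to 2664 CPM in Model, 2965 to 4572 CPM in Control) and fibroblasts (2926 to 3287 CPM in Model, 3891 to 6588 CPM in Control) were lower in Model without overlap. The part of these cell types in the Csf2ra difference was not tested.

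The promoters of the 2 receptor genes whose groups did not overlap are shown with the hexamer GAGGAA in capitals. It is the core of sites of PU.1, the product of Spi1 and a master factor of myeloid cells. They are RefSeq sequences on GRCm38.p6, from 250 bases before to 50 after an annotated start, and RefSeq entries were matched for 4 of the 7 genes.
Csf3r: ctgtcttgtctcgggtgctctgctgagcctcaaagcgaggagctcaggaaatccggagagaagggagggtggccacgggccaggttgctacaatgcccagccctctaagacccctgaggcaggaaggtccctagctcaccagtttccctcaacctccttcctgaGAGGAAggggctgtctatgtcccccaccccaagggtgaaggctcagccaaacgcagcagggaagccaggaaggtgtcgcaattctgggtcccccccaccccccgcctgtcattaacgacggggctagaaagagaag
Csf2ra: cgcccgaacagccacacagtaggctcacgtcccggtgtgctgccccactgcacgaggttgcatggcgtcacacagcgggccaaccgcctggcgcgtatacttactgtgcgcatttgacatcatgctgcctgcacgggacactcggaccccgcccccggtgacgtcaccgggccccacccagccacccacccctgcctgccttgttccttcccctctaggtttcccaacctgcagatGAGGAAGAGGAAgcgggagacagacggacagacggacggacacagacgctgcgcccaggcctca
The Csf3r stretch is chr4:126024409-126024708 on the plus strand and holds 1 copy. The Csf2ra stretch is chr19:61228369-61228668 on the minus strand and holds 2 adjacent copies. Read on both strands, the hexamer lies in 28.3% of 32851 mouse promoters of this length, and at least 2 copies lie in 4.82%. The stretches of Csf1 and Csf2 hold none. That of Csf2 (chr11:54249850-54250149, minus strand) lies wholly upstream of the GENCODE gene (chr11:54247271-54249667). The bases next to the GENCODE start of Csf2 were therefore not searched. Spi1 itself did not pass the test.

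The shared beta chain Csf2rb did not pass the test, whereas its close copy Csf2rb2 was lower in Model. Csf2rb (ENSMUSG00000071713, chr15:78325752-78353847, plus strand) stood at 170, 233 and 155 CPM in Model 1 to 3 and at 249, 92.7 and 156 CPM in Control 1 to 3. The groups overlapped throughout (log2 fold change 0.17, SE 0.33, edgeR adjusted p = 0.886), and the sign turned negative without Control 2 (-0.13) or Model 2 (-0.04). Csf2rb2 (ENSMUSG00000071714, chr15:78282507-78305721, minus strand), in mice a second beta chain that serves the IL-3 receptor only, stood at 82.1, 86.4 and 49.1 CPM in Model 1 to 3 and at 255, 103 and 223 CPM in Control 1 to 3. All Model libraries lay below all Control libraries, and Csf2rb2 fell by 1.42 on the log2 scale (SE 0.35, edgeR adjusted p = 0.0438).

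The call of Csf2rb2 depended on most libraries. It was kept without Control 2, and lost without Control 1 (adjusted p = 0.165), Control 3 (0.116), Model 1 (0.108), Model 2 (0.0615) or Model 3 (0.127), with the replicate number as a block (0.0536) with limma-voom (0.0773), without Control 1 and Model 2 together (0.215) and with a required log2 fold change of 1. Lymphocyte markers moved with Csf2rb2. The 10 T and NK cell markers in the table summed to 426, 432 and 232 CPM in Model 1 to 3 and to 1332, 538 and 759 CPM in Control 1 to 3. The 7 B cell markers summed to 550, 436 and 293 CPM in Model 1 to 3 and to 1405, 823 and 1038 CPM in Control 1 to 3. None of these 17 markers was at 0 in any library, and both sums, like Csf2rb2, were highest in Control 1 and lowest in Model 3. The smooth muscle sum had the same extremes, with 4572 CPM in Control 1 and 1133 CPM in Model 3, so they are not particular to lymphocyte markers. The part of these cell types in the Csf2rb2 difference was not tested. The ratio of the pair within a library does not depend on how libraries are scaled. It was 2.07, 2.70 and 3.161 counts of Csf2rb per count of Csf2rb2 in Model 1 to 3, against 0.977, 0.901 and 0.703 in Control 1 to 3. The lowest Model ratio was above the highest Control ratio. The mean log2 ratio was 1.38 ± 0.31 in Model and -0.23 ± 0.25 in Control (SD, n = 3 each), a difference of 1.61 (exact permutation test, two-sided p = 0.1, the smallest that 3 against 3 samples allow), and 1.47 to 1.78 without any 1 library.

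**Figure D2:**
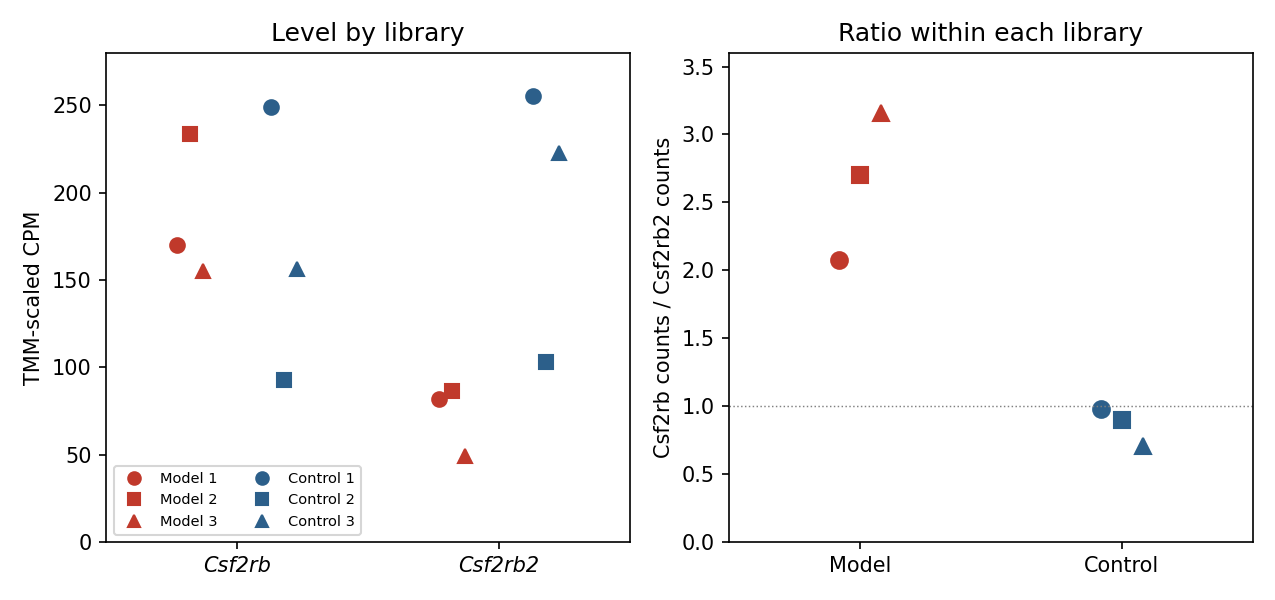
TMM-scaled CPM of Csf2rb and Csf2rb2 in each library (left) and the ratio of their raw counts within each library (right), with Model in red left of Control in blue and the symbol giving the replicate number. The Csf2rb levels overlap, while the 3 Model ratios, 2.07 to 3.161, lie above the 3 Control ratios, 0.703 to 0.977, all of which are below the dotted line at 1.

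The pair is shown because reads of such near-identical copies can be assigned to either. The first 60 coding bases, from the GENCODE transcripts, differ at 1 position, in capitals.
Csf2rb: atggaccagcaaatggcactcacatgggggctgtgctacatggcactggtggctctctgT
Csf2rb2: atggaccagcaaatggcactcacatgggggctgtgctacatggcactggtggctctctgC
Over the whole coding sequences, 2691 bases in Csf2rb and 2637 in Csf2rb2, 95.2% of 2631 aligned bases were identical, and the longest identical run was 242 bases. Of all stretches of 50 bases in the Csf2rb coding sequence, 26.0% occur without a mismatch in Csf2rb2. The levels of both genes are therefore uncertain.

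Csf1r was all but absent from 5 of the 6 libraries. Csf1r (ENSMUSG00000024621, plus strand) had 1, 0 and 1 counts in Model 1 to 3 and 1, 2 and 220 counts in Control 1 to 3, so that Control 3 held 97.6% of its summed CPM. It did not pass the filter on low counts, and in the fit without a filter its edgeR adjusted p was 0.312. No fold is given, since the Control level rests on 1 library. Of genes with at least 40 counts in all, 0.383% had over 95% of their summed CPM in Control 3 and 2.72% had it in any 1 library. Csf2, with 97.8% in Control 3, was among them too.

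The low Csf1r counts stood beside higher counts of other macrophage genes, though some of these were low too. The 12 monocyte and macrophage markers in the table summed to 899, 1302 and 770 CPM in Model 1 to 3 and to 1639, 967 and 1844 CPM in Control 1 to 3. Lyz2 alone gave 530, 694 and 329 CPM in Model 1 to 3 and 1102, 493 and 988 CPM in Control 1 to 3. Others were scarce in some libraries, such as Cx3cr1 with 4 counts in Model 2 and Ms4a7 with 11 counts in Model 3. None of the 12 was at 0 in any library and none passed the test (median log2 fold change -0.58), and their other defining marker Adgre1 was not analysed here. After adding 1 count to both sums, Csf1r per marker count was 9.0e-05, 2.8e-05 and 1.0e-04 in Model 1 to 3, against 3.5e-05, 7.6e-05 and 0.00353 in Control 1 to 3. The difference of the mean log2 ratios was -1.72 (exact permutation test, two-sided p = 0.7) and 0.32 without Control 3. Of 5774 annotated exon bases of Csf1r, 873 are shared with other genes, among them Hmgxb3 on the other strand, and the part of the counting in its low counts was not tested.

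**Figure D3:**
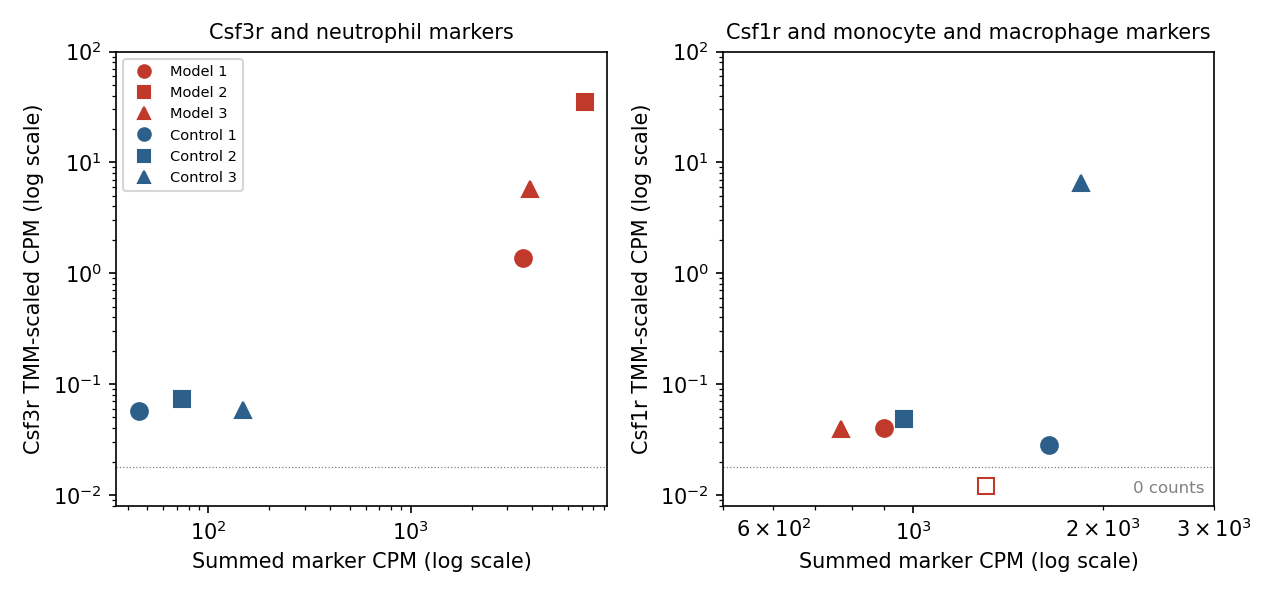
TMM-scaled CPM of Csf3r against the summed CPM of 12 neutrophil markers (left) and of Csf1r against that of 12 monocyte and macrophage markers (right), both axes on a log scale, 1 point per library, with Model in red and Control in blue. Csf3r is high in the Model libraries, where the neutrophil markers sum to 3572 to 7253 CPM, and Csf1r is clear of 0 in Control 3 alone although the macrophage markers range only from 770 to 1844 CPM.

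Levels can be compared between the genes only per length, here CPM per kilobase of annotated exons. In Model the order was Csf2rb (25.6 ± 5.71), Csf1 (25.4 ± 13.6), Csf3 (11.9 ± 10.6), Csf2ra (5.96 ± 1.60), Csf3r (3.91 ± 5.10), Csf1r (0.00461 ± 0.00399) and Csf2 at 0 (SD, n = 3). Neighbours from Csf2rb down to Csf3r lay within their spread of each other. In Control the order was Csf2rb (22.8 ± 10.8), Csf1 (16.5 ± 4.77) and Csf2ra (1.30 ± 0.54), with Csf2 (0.53 ± 0.88) and Csf1r (0.38 ± 0.64) next through Control 3 alone, then Csf3 (0.0596 ± 0.0678) and Csf3r (0.0174 ± 0.0025). The first 2 lay within their spread of each other there.

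Of the 7 members 5 were tested, since Csf2 and Csf1r did not pass the filter on low counts. Csf3 and Csf3r were thus the 2 of the 5 tested members past the test, both higher, and none of the 5 was lower, where 2.71% and 1.36% of all tested genes were called. Csf3 and Csf3r passed the filter through their Model libraries, so this count is no measure of the family as a whole. At an unadjusted p under 0.05, which 15.8% of all tested genes reached, there were 3 members with Csf2ra, all higher. The count of members higher was 3 with DESeq2, 0 with limma-voom, which called 2.5% of genes higher, and 0 without Control 1 and Model 2 together. It was 1 with a minimum count of 100, 1 when a log2 fold change of at least 1 was required, 1 without any 1 Control library, and 1 without Model 2 or Model 3.

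The other receptor chains of the family were uneven. Il3ra, the alpha chain of the IL-3 receptor, stood at 21.8, 1.06 and 1.02 CPM in Model 1 to 3 and at 21.7, 9.03 and 7.51 CPM in Control 1 to 3 (log2 fold change -0.68, SE 1.21, edgeR adjusted p = 0.867). Model 1 was the highest of all libraries and the other 2 Model libraries the lowest, and the Il3ra log2 fold change was -3.62 without Model 1 and -2.04 with the replicate number as a block. Il5ra, the alpha chain of the IL-5 receptor on eosinophils, stood at 0.0808, 0.837 and 2.32 CPM in Model 1 to 3 and at 0.0566, 0.438 and 5.77 CPM in Control 1 to 3 (-0.95, SE 2.03, edgeR adjusted p = 0.893). It was highest in Control 3, as were Csf2 and Csf1r. Il3 and Il5 were not analysed here.

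Genes around the family were counted in 7 lists of 88 genes, of which 80 were tested. The lists hold related ligands and receptors, receptor signalling, STAT targets, transcription factors, inducers of CSF genes, decay of AU-rich transcripts, and neutrophil release. Of the 80, 14 were higher and 3 lower in Model, 17.5% and 3.75%, beside 2.71% and 1.36% of all tested genes. Their median log2 fold change was 0.39, beside -0.01 over all tested genes. The lists were chosen with earlier results of these data known, so the larger shares are no test of these pathways. Of the 14 higher genes, 9 belong to the inducers, the decay list and neutrophil release, whose genes are not parts of the receptor pathways. The higher genes numbered 9 when Control 2, Model 1 or Model 3 was left out and 7 without Control 1 and Model 2 together. The lower genes numbered 1 when Control 1, Model 1 or Model 3 was left out and 0 without Control 1 and Model 2 together.

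Of 12 feedback, survival and cytokine genes downstream of STAT3 and STAT5, 3 rose and none fell, with a median of 0.86. Socs3, the feedback inhibitor of the G-CSF and IL-6 receptors, stood at 157, 264 and 246 CPM in Model 1 to 3 and at 52.5, 22.2 and 37.7 CPM in Control 1 to 3 (log2 fold change 2.57, SE 0.35, edgeR adjusted p = 0.00130), and kept its call in all 15 alternative settings. Bcl2l1, which encodes the survival protein BCL-XL, stood at 266 ± 71.0 CPM in Model and 76.8 ± 2.04 CPM in Control (1.79, SE 0.26, edgeR adjusted p = 0.00183). Osm, a cytokine gene that STAT5 induces in myeloid cells, stood at 60.03, 172 and 27.1 CPM in Model 1 to 3 and at 1.22, 1.39 and 5.89 CPM in Control 1 to 3 (4.93, SE 0.83, edgeR adjusted p = 0.00494). Its call was lost with limma-voom (adjusted p = 0.119) and without Control 1 and Model 2 together (0.0922). Cish, the classical STAT5 target, stood at 35.3 ± 9.40 CPM in Model and 17.7 ± 9.23 CPM in Control and did not pass (0.997, SE 0.56, edgeR adjusted p = 0.428).

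Of 21 genes of receptor signalling, 2 rose and 1 fell, with a median of 0.49. Stat3 stood at 676 ± 69.1 CPM in Model and 308 ± 53.8 CPM in Control (log2 fold change 1.14, SE 0.24, edgeR adjusted p = 0.0194). Gab2, a docking protein, stood at 192 ± 27.4 CPM in Model and 86.5 ± 2.12 CPM in Control (1.15, SE 0.24, edgeR adjusted p = 0.0176). Ptpn6, which encodes the phosphatase SHP-1 that dampens these receptors, stood at 72.7 ± 14.7 CPM in Model and 191 ± 52.3 CPM in Control and fell by 1.40 on the log2 scale (SE 0.29, edgeR adjusted p = 0.0170). With 1 library left out, Stat3 missed the threshold for Control 2, Control 3, Model 1 and Model 3 (adjusted p = 0.0569 to 0.0799), Gab2 for Control 2, Control 3 and Model 1 (0.0578 to 0.0801) and Ptpn6 for Control 1 and Model 3 (0.0606 and 0.0604). Without Control 1 and Model 2 together, Gab2 (edgeR adjusted p = 0.0749) and Ptpn6 (0.118) missed it, and Stat3 kept its call (0.0482). The count of higher genes was 0 when Control 2, Control 3 or Model 1 was left out and 1 without Model 3. Ptpn6 is abundant in lymphocytes, whose marker sums, given beside Csf2rb2, were also lower in Model without overlap, and their part in the Ptpn6 difference was not tested.

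**Figure D4:**
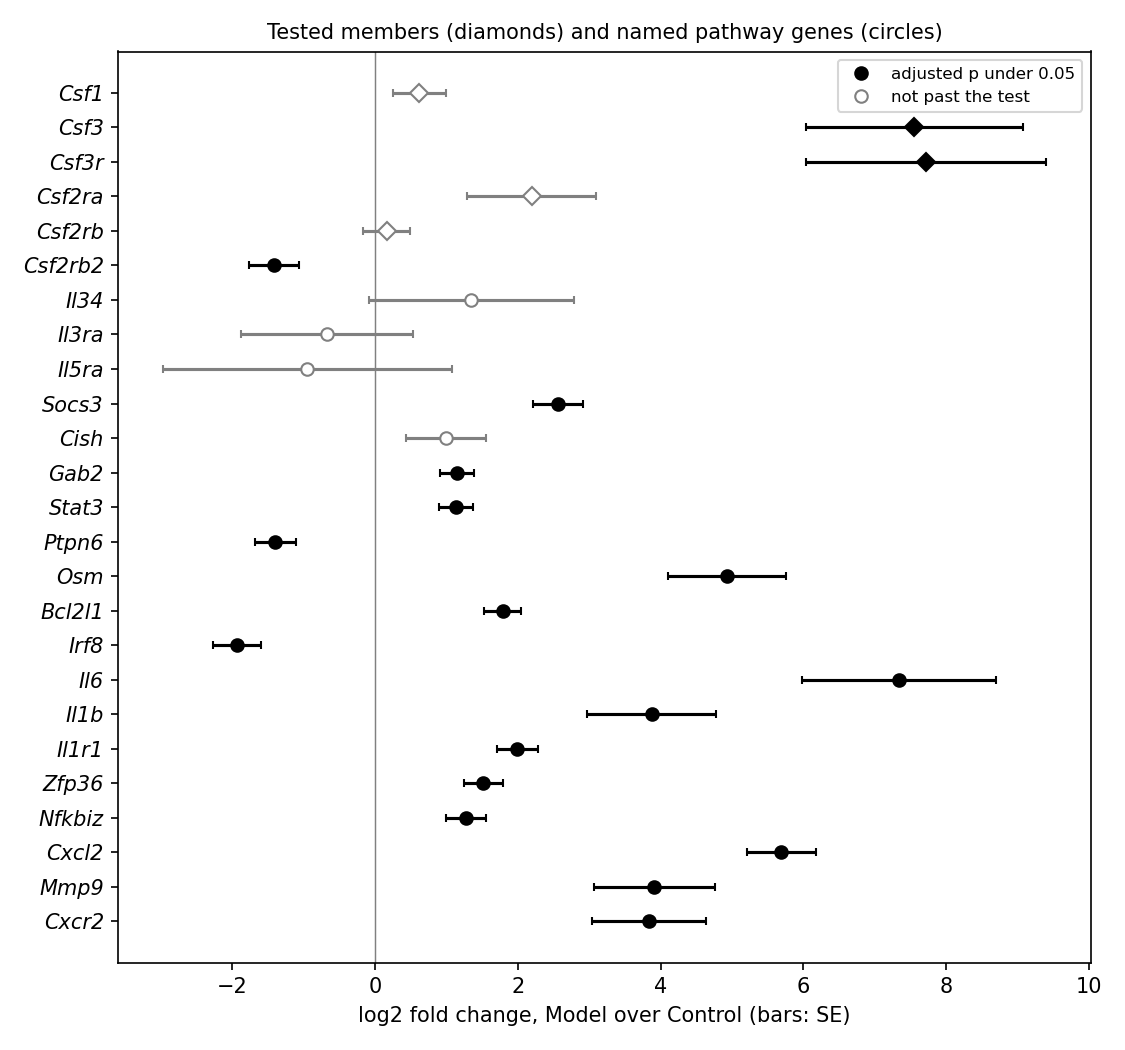
Log2 fold change of Model over Control with its SE for the 5 tested members (diamonds) and the named genes of the pathway lists (circles), filled in black where the edgeR adjusted p was under 0.05. Csf3 and Csf3r have the largest values and wide bars, Csf1 and Csf2rb lie near 0, and Csf2rb2, Ptpn6 and Irf8 are filled on the negative side.

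The list of inducers of CSF genes held cytokines, cytokine receptors, Toll-like receptors and subunits of the transcription factor NF-kB. Of 13 tested, 4 were called, all higher, with a median of 0.96 over the 13. The 4 were cytokines or cytokine receptors, and Tlr2, Tlr4, Nfkb1, Rela and Relb were not called. Il6 stood at 7.88, 18.7 and 25.6 CPM in Model 1 to 3 and at 0.170, 0.0243 and 0.118 CPM in Control 1 to 3 (log2 fold change 7.34, SE 1.36, edgeR adjusted p = 0.00904). Il1b stood at 39.8, 55.1 and 58.5 CPM in Model 1 to 3 and at 0.368, 1.97 and 8.13 CPM in Control 1 to 3 (3.87, SE 0.90, edgeR adjusted p = 0.0304). Il1r1, the signalling receptor of interleukin 1, stood at 322 ± 85.5 CPM in Model and 81.0 ± 19.4 CPM in Control (1.99, SE 0.29, edgeR adjusted p = 0.00177) and kept its call in all 15 alternative settings. The fourth was Tnfrsf1a, a receptor of tumour necrosis factor outside the naming rule, with 242 ± 71.8 CPM in Model and 101 ± 10.3 CPM in Control. Il6 missed the threshold when Model 3 was left out (adjusted p = 0.0543) and under limma-voom (0.0917), and Il1b without Control 2 or any 1 Model library (0.0641 to 0.0802). Both missed it without Control 1 and Model 2 together (edgeR adjusted p = 0.0544 for Il6 and 0.0848 for Il1b). With Control 2 or Model 1 left out 2 genes were called, and without Model 3 only 1.

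A list of 11 genes around the decay of AU-rich cytokine transcripts, 10 of them factors that bind or degrade such transcripts, held 2 that rose and none that fell, with a median of 0.28. Of the 10 factors, Zfp36 was the 1 that rose. Zfp36 stood at 250 ± 55.7 CPM in Model and 87.3 ± 21.0 CPM in Control (log2 fold change 1.52, SE 0.27, edgeR adjusted p = 0.00748). Nfkbiz, which encodes an inducible nuclear partner of NF-kB and is no decay factor but whose own transcript is a target of the decay factor Regnase-1, stood at 198 ± 46.3 CPM in Model and 81.9 ± 19.8 CPM in Control (1.27, SE 0.28, edgeR adjusted p = 0.0248). Nfkbiz missed the threshold when Control 1, Control 2, Model 1 or Model 3 was left out (adjusted p = 0.0676 to 0.103). The count was 1 when Control 2, Model 1 or Model 3 was left out and 0 without Control 1 and Model 2 together, where Zfp36 had an adjusted p of 0.0882 and Nfkbiz one of 0.0628.

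Of 11 tested transcription factors of granulocytes and macrophages, none rose and 1 fell, with a median of -0.18. It was Irf8, a factor that favours the monocyte and dendritic cell fates over the neutrophil fate, with 74.7 ± 14.5 CPM in Model and 284 ± 128 CPM in Control (log2 fold change -1.93, SE 0.34, edgeR adjusted p = 0.00610). Irf8 is also a B cell gene, and the lower B cell marker sums given above stand beside it, a relation that was not tested. Without Model 1 the adjusted p was 0.0508 and the count 0. Without Control 1 and Model 2 together Irf8 also missed the threshold (edgeR adjusted p = 0.0509).

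Of 8 tested genes of neutrophil release and retention, 3 rose and none fell, with a median of 2.10. Cxcl2, a neutrophil-attracting chemokine, stood at 121, 116 and 83.1 CPM in Model 1 to 3 and at 1.16, 2.29 and 2.74 CPM in Control 1 to 3 (log2 fold change 5.69, SE 0.49, edgeR adjusted p = 5.42e-05). Its receptor Cxcr2 stood at 56.2, 242 and 90.5 CPM in Model 1 to 3 and at 1.13, 10.8 and 15.2 CPM in Control 1 to 3 (3.84, SE 0.80, edgeR adjusted p = 0.0177). Mmp9, a gelatinase of neutrophil granules, stood at 39.1, 174 and 94.2 CPM in Model 1 to 3 and at 0.679, 7.62 and 12.1 CPM in Control 1 to 3 (3.91, SE 0.84, edgeR adjusted p = 0.0215). Cxcr2 and Mmp9 are also among the neutrophil markers, share the library order of Csf3r in Model, and missed the threshold without Model 2 (adjusted p = 0.0606 for Cxcr2 and 0.0647 for Mmp9) and with limma-voom (0.0550 and 0.0758), where the count was 1. Without Control 1 and Model 2 together Mmp9 missed it too (edgeR adjusted p = 0.0534), while Cxcr2 kept its call (0.0360).

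The genes closest in profile to each tested member were taken by the root mean square difference of centred log2 CPM over the 6 libraries, among 13302 genes. For Csf3 these were Cxcl5 (0.56), Tarm1 (0.65) and Timp1 (0.77), and for Csf3r they included Apoc2 (0.57) and Mmp8 (0.82). Those of Csf2ra included Il13ra1 (0.29) and Tubb6 (0.31). The profiles nearest to Csf1 were those of Dcxr (0.06), Med10 (0.22) and Psma3 (0.22), and those nearest to Csf2rb were Gbp6 (0.07), Itgb2 (0.08) and Vcam1 (0.13). With 6 libraries in 2 groups, the measure mostly reflects the difference between the groups where that is large.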

How the data were processed

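Total RNA of 6 mouse samples, freed of ribosomal RNA, was sequenced, and reads were trimmed with cutadapt 1.9.3, per the labels' protocols. STAR 2.5.1b, edgeR 3.16.5 and mm10 are named in the submitters' processing notes, and which counting tool, annotation and strand mode were applied is not given in the sources used here. Per the file headers, the deposited table gives raw read counts for each gene, used unchanged, and 6 columns of normalized values that were not used. Where genes overlap on opposite strands, their reads may therefore be mixed.

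Model was compared with Control in R 4.3.3 with edgeR 4.0.16 (filterByExpr with a minimum count of 10, TMM scaling, quasi-likelihood test, two-sided, Benjamini-Hochberg over all tested genes, threshold 0.05). The SE is the log2 fold change over the square root of F. The fit was tested on simulated counts. The members, the gene lists and the alternatives were chosen with earlier results of these data known. Named genes are the 7 members, 8 others fixed by name, up to 3 higher and 3 lower called genes of each list, and the 3 nearest profiles of each tested member, of which 1 for Csf3r and 1 for Csf2ra are not reported here. Other names, such as the markers Ly6g and Camp, Tnfrsf1a and Spi1, were chosen after their values were seen. Positions, exon lengths and transcripts come from GENCODE M21 on GRCm38, which mm10 names, and promoters from RefSeq. Csf1r had a 0 in Model 2, so its ratios needed a pseudocount of 1. No 2 libraries of a group were duplicates. Intervals and the 3 counts that a 0 allows cover counting error only. DESeq2 1.42.0 and limma-voom (limma 3.58.1) were alternatives.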

Additional observations from a re-analysis of the deposited data

How the results depend on the processing

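The numbers of genes higher and lower in Model, 377 and 189, were 642 and 469 without a filter, 639 and 578 with DESeq2, 129 and 21 with a required log2 fold change of 1, 222 and 63 without Control 1 and Model 2, and 221 to 312 and 92 to 136 without any 1 library, and limma-voom gave 115 lower genes. The members higher in Model, 2 in all, were 1 with a minimum count of 100 (where Csf3r was not tested), 0 with limma-voom, 1 with the required fold change, 0 without Control 1 and Model 2, and 1 to 2 without any 1 library. For genes of the 7 pathway lists, 14 higher and 3 lower, the counts were 5 and 0 with the required fold change, 7 and 0 without Control 1 and Model 2, and 9 to 15 and 1 to 3 without any 1 library.

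Csf3 stayed positive throughout, at 7.40 with limma-voom, 7.32 without Control 1 and Model 2 and 6.59 to 8.99 without any 1 library. Csf3r stayed positive as well, at 6.50 with limma-voom, 7.72 with the required fold change (adjusted p = 0.0564), 5.67 without Control 1 and Model 2 and 5.73 to 8.25 without any 1 library. Csf2ra passed with DESeq2 alone (2.19). Csf2rb ranged from -0.13 to 0.57 without any 1 library, Il5ra from -2.17 to 2.11, with 0.088 under limma-voom and 0.0042 with the replicate number as a block, and Il3ra from -3.62 to -0.07, with -2.04 with the block and 0.48 without Control 1 and Model 2. The log2 ratio difference of Csf3r to neutrophil markers ranged from -0.058 to 1.77 and that of Csf1r to macrophage markers from -3.02 to 0.32 without any 1 library. The cause was not tested in any of these cases.

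The replicate numbers were not found to pair the samples. Same-numbered libraries had correlations of their deviations from the group means of 0.05, 0.03 and -0.01, and 2 of 6 libraries correlated best with their own number. With the number as a block, 379 genes were higher and 196 lower, Csf3 stood at 7.51 (adjusted p = 0.0190) and Csf3r at 6.68 (adjusted p = 0.0467). Among the members and the named genes of the lists, the call of Csf2rb2 was the one lost, and the nearest profiles were not examined with the block. Csf2 and Csf1r had 0 to 2 counts in each library but Control 3, so their Control levels and spread rest on that library.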
